A study of Danio rerio with 8 samples.

Results

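The genes of the cytoplasmic ribosomal proteins were compared between 3 groups of zebrafish embryos on Agilent arrays. Members were chosen by name: the symbol starts with rpl or rps and a digit, or is rpsa, and rps6k kinases, rps27l and other l-named paralogues were left out. The rule found 75 genes, measured by 163 probes, among 12792 named genes and 39162 probes. They comprise 42 genes of the large subunit with 93 probes and 33 genes of the small subunit with 70 probes. A gene had up to 5 probes, with 55 genes covered by 2 or more and 20 genes by 1. The table of current symbols holds 76 names that meet the rule, and rps11b, which no probe matched, was not analysed here.

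All embryos were of the AB strain, were injected at the 1-cell stage and were collected whole at 24 hpf (hours post fertilisation), and each array holds a pool of 50 embryos. The MO-Ct group (n = 2) received 1.5 ng of a control morpholino and a control miRNA mimic. The MO-Tbx5a group (n = 3) received 1.5 ng of a morpholino against tbx5a, the T-box factor of heart and fin formation, with the control mimic. The MO-Tbx5a+miR-19a group (n = 3) received 1.5 ng of the tbx5a morpholino and miR-19a mimic, and each mimic was injected at 0.25 ng. The mimics are as the study's methods give them. The treatment label of the last group reads MO-19a, which elsewhere in the study names a blocking morpholino, while its sample titles name the miRNA. Array levels of tbx5a do not tell a miR-19a mimic from a blocking morpholino. A morpholino that blocks translation need not alter its target's transcript, so tbx5a levels were not used to check the other labels. The MO-Tbx5a+miR-19a RNA was labelled with another kit from 0.5 ug, against 200 ng in the other groups, and was scanned with another software version, so kit, software and treatment cannot be told apart in any comparison with that group.

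Each ribosome joins a small subunit, which reads the mRNA, to a large subunit, which links amino acids, and a cell needs nearly all of these proteins in matching amounts. Their mRNAs are among the most abundant of any cell and share a pyrimidine-rich start through which nutrient and growth signals set their translation together. Losses of single ribosomal proteins in zebrafish and humans can give anaemia and activation of p53, which makes the balance between these genes a usual thing to measure.

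Values are the deposited log2 intensities, normalised between arrays. A probe was called when limma, fitted over all probes of the 8 arrays, gave a fold change above 1.3, p under 0.05 and an FDR under 0.05, and all adjusted p-values are those of limma with Benjamini-Hochberg adjustment over 39162 probes. A gene was represented by its probe with the highest mean over the 8 arrays, termed its brightest probe, and the other 88 probes were counted separately. Brightness depends on the probe as well as on the transcript, so levels of different probes are not compared as amounts of RNA. All 163 probes were well above background in the 3 deposited scans and 0 were saturated there. The scans belong to the MO-Tbx5a+miR-19a samples. They tracked the MO-Ct replicate 2 values (Spearman rho 0.94 to 0.95) more closely than those of their own samples (0.93 to 0.94). Their intensities were not used further. Array medians over all probes lay between 7.77 and 7.80. Replicates are separate samples of embryo pools, so the p-values measure the spread between these pools, and fewer cells of a type and less RNA per cell cannot be told apart. Of 12 marker genes of embryonic cell types, 11 were on the array, all well above background in every scan, among them myl7 of the heart, elavl3 of neurons and mylpfa of skeletal muscle.

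With Tbx5a depletion the brightest probes and the other probes of the same genes gave different pictures. By the brightest probe, 7 of 75 genes rose and 5 fell, where the background over all named genes was 16.5% higher and 20.6% lower. The median change was 0.08 on the log2 scale for the large subunit and 0.11 for the small subunit, beside 0.01 over all probes, and both subunit medians turned negative under quantile normalisation (-0.04 each). Of the other 88 probes 41 fell (46.6%) and 3 rose, with a median change of -0.37 that stayed below 0 under quantile normalisation (-0.27), cyclic loess (-0.26) and 75th-percentile scaling (-0.37). Probes of all other genes that were not the brightest of their gene were called lower in 26.8% and higher in 17.0%. Of 1011 other probes with a mean of 14 or more, the range that holds 157 of the 163 ribosomal protein probes, 30.7% were called lower and 13.2% higher.

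Counted over all 163 probes, 46 fell and 10 rose, beside a background of 19.6% lower and 18.7% higher over the whole array. The large subunit had 24 of 93 probes lower and 5 higher and the small subunit 22 of 70 lower and 5 higher. Of the 75 genes 34 had at least 1 probe that fell, 9 had at least 1 that rose and 36 had none called. Of all named genes 34.7% had a probe called lower and 24.8% a probe called higher. Such shares rise with the probes per gene, which were not matched (163 probes for 75 genes, against 24716 for 12792). A further round of cyclic loess, the normalisation that the study's methods name, gave 5 brightest probes lower and 16 higher. Of all 39162 probes 7578 were lower and 7452 higher in that fit.

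**Figure D1:**
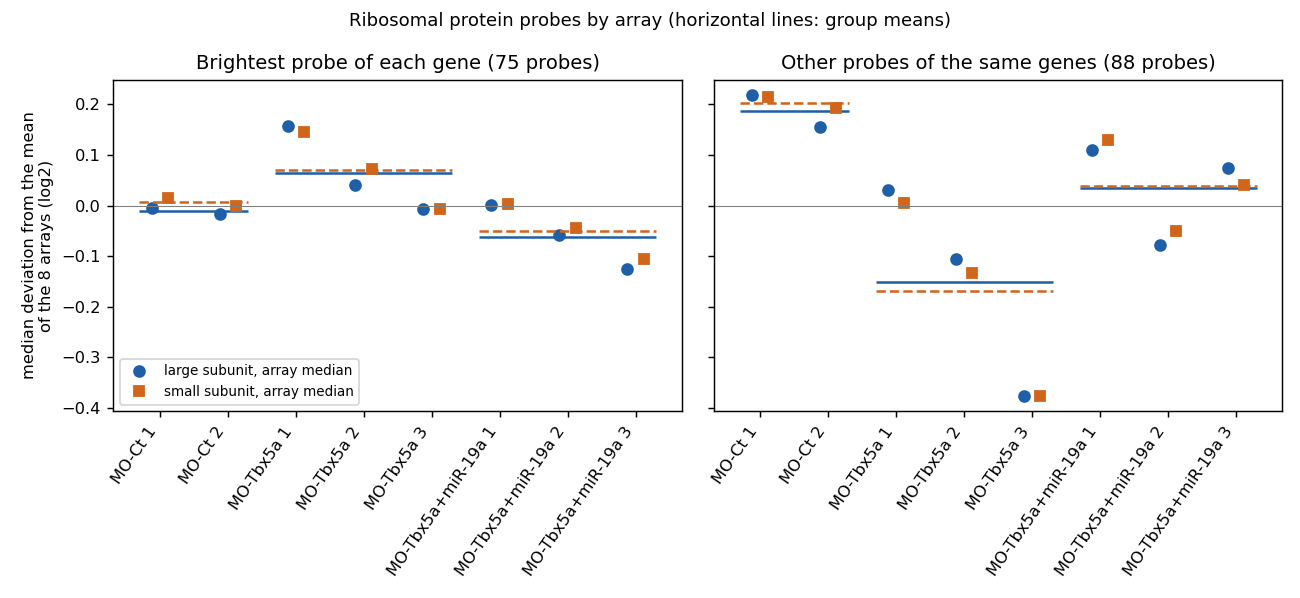
Median deviation of ribosomal protein probes from each probe's mean over the 8 arrays (vertical axis, log2) for every array (horizontal axis), with circles for the large subunit, squares for the small subunit and horizontal lines for the group means. The other probes (right) lay at 0.16 to 0.22 in MO-Ct, fell to -0.38 in MO-Tbx5a replicate 3 for both subunits, and lay between -0.08 and 0.13 in MO-Tbx5a+miR-19a, while the brightest probes (left) stayed within -0.13 and 0.16.

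The medians of large and small subunit genes were close on every array. Relative to each probe's own mean, the median of the brightest large subunit probes was -0.01 and -0.02 in MO-Ct, 0.16, 0.04 and -0.01 in MO-Tbx5a, and 0.00, -0.06 and -0.13 in MO-Tbx5a+miR-19a. The small subunit gave 0.01 and 0.00, then 0.14, 0.07 and -0.01, then 0.00, -0.04 and -0.11. Subtracting the small from the large subunit left between -0.03 and 0.01 on the 8 arrays, and the group means of this difference were -0.02 ± 0.00 (SD, n = 2), -0.01 ± 0.02 (SD, n = 3) and -0.01 ± 0.01 (SD, n = 3). On the other probes the same difference ran from -0.04 to 0.03, with group means of -0.02 ± 0.03 (SD, n = 2), 0.02 ± 0.02 (SD, n = 3) and 0.00 ± 0.03 (SD, n = 3). Over all 163 probes it was 0.02 ± 0.02 in MO-Tbx5a and -0.02 ± 0.01 in MO-Tbx5a+miR-19a (SD, n = 3 each), whose arrays did not overlap. No test was run on it, because the members were chosen with earlier results known.

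The MO-Tbx5a arrays did not contribute equally. For the other probes the large subunit median was 0.03, -0.11 and -0.38 in MO-Tbx5a replicates 1, 2 and 3, against 0.22 and 0.16 in MO-Ct. MO-Tbx5a replicate 3 was the lowest of all 8 arrays for 59 of these 88 probes and the highest for 9. Among the 75 brightest probes it was the lowest for 19 and the highest for 17. The same count was not made over the whole array. Without MO-Tbx5a replicate 3, 32 of the 88 other probes were called lower and their median change was -0.27. With either MO-Ct array left out, fewer of the 88 probes were called lower, as were fewer of all probes on the array. The median change of the 88 probes was -0.36 in each case.

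The gap between the probes of a gene was measured in the 55 genes with 2 or more. The change of the dimmest probe was below that of the brightest in 49 of 55 genes (27 of 32 large and 22 of 23 small), with a median difference of -0.46 between the changes. In the 447 other genes whose brightest probe averaged 14 or more this held for 67.1%, with a median difference of -0.34. In all 7450 other genes with at least 2 probes it held for 61.2%, with -0.14. These genes are not matched in level. Brightest and dimmest probes lay a median of 5.14 apart in the 447 and 2.27 in the 7450, against 1.24 in the ribosomal protein genes. Single arrays were compared by the median of dimmest minus brightest probe, relative to the probes' own means. It was 0.26 and 0.23 in MO-Ct and -0.19, -0.21 and -0.39 in MO-Tbx5a. In MO-Tbx5a+miR-19a it was 0.16, 0.02 and 0.19, so the MO-Tbx5a arrays did not overlap with either of the other groups. Across the 163 probes, which share arrays and often a transcript, change and mean intensity had a Spearman rho of 0.61 (Pearson r = 0.26), against 0.03 in the 1011 other bright probes. Of those 1011, 763 averaged from 14 to below 16, where their median change was -0.12. It was -0.19 from 16 to 17, 0.22 from 17 to 18 and 0.19 from 18. In the same ranges the ribosomal protein probes had medians of -0.735, -0.37, 0.02 and 0.19. The median difference between dimmest and brightest probe was -0.31 under quantile normalisation. In 10 of the 55 genes the leading probes were within 0.2 of each other, so there the choice of the brightest rests on little.

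**Figure D2:**
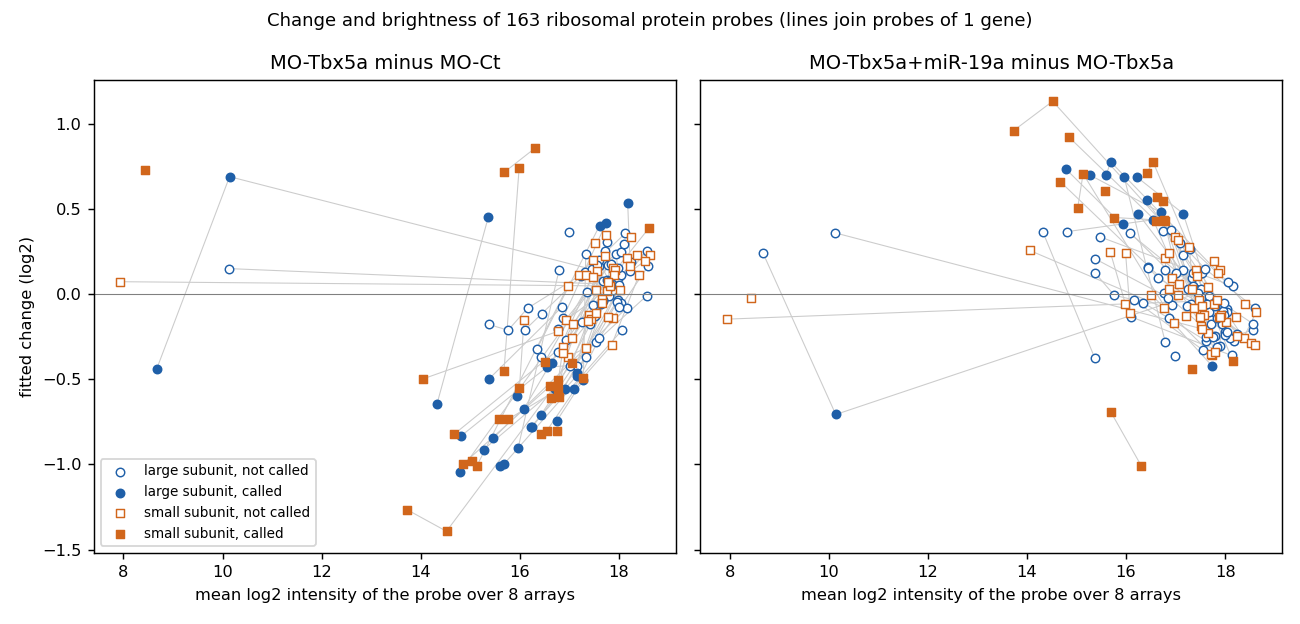
Fitted change (vertical axis, log2) against the mean log2 intensity of each of the 163 probes (horizontal axis), filled where called, with grey lines joining the probes of a gene. With depletion (left) the called falls lie mostly to the left of the brightest probes, down to -1.39 for an rps6 probe, and with miR-19a (right) probes of the same genes lie above 0, up to 1.13.

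rps6, the small subunit protein that S6 kinases phosphorylate on growth signals, had its largest falls on its dimmer probes. Its brightest probe stood at 17.46 and 17.59 in MO-Ct, 17.44, 17.35 and 17.32 in MO-Tbx5a and 17.37, 17.27 and 17.22 in MO-Tbx5a+miR-19a. The MO-Tbx5a arrays lay just below MO-Ct, and the change of -0.16 (SE 0.12, limma adjusted p = 0.314) was not called. A dimmer rps6 probe stood at 15.18 and 15.10 in MO-Ct, fell to 14.07, 13.76 and 13.41 in MO-Tbx5a and returned to 14.97, 14.55 and 15.12 in MO-Tbx5a+miR-19a. All MO-Tbx5a arrays were below all others on this probe, which changed by -1.39 (SE 0.20, limma adjusted p = 0.000172), a level 0.381-fold of MO-Ct. The remaining rps6 probes fell by 0.41 and 1.27 and were both called.

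rpl8, a protein at the catalytic core of the large subunit, gave a similar pattern. Its brightest probe read 18.19 on both MO-Ct arrays and 18.14, 17.99 and 17.80 in MO-Tbx5a, a change of -0.21 (limma adjusted p = 0.210) that was not called. A dimmer probe read 16.20 and 16.09 in MO-Ct, 15.35, 15.17 and 14.93 in MO-Tbx5a and 15.98, 15.72 and 16.08 in MO-Tbx5a+miR-19a, a fall of 0.99 (SE 0.15, limma adjusted p = 0.000282). The last rpl8 probe fell by 1.01. rpl13, also of the large subunit, had its lowest change, -1.04, on its dimmest probe. rpl8 and rpl13 were singled out after their values were seen.

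**Figure D3:**
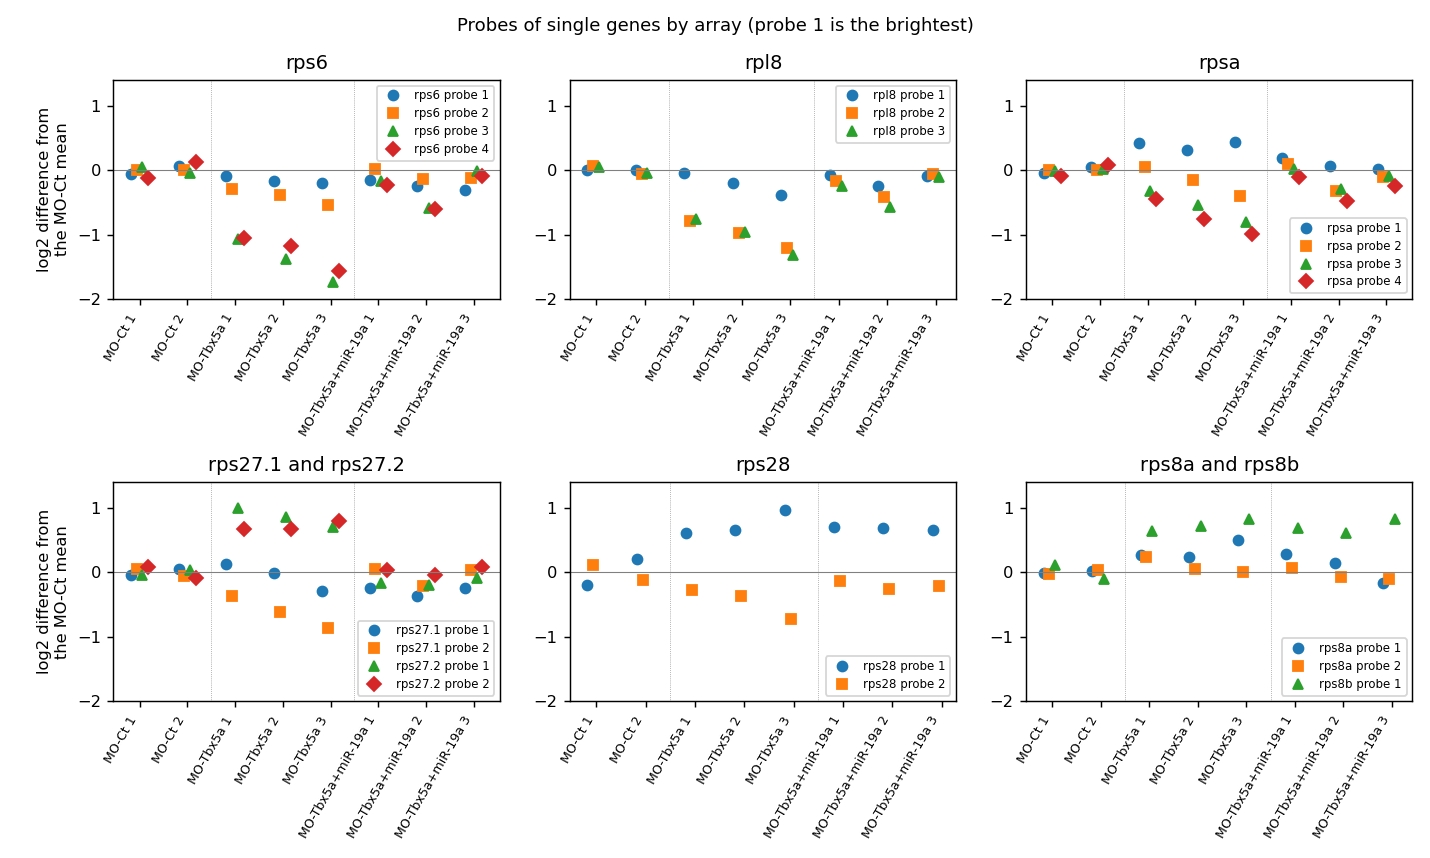
Difference of each probe from its own MO-Ct mean (vertical axis, log2) on the 8 arrays (horizontal axis, groups separated by dotted lines) for rps6, rpl8, rpsa, rps27.1 with rps27.2, rps28 and rps8a with rps8b, where markers and colours stand for probes. Both rps27.2 probes are highest on the 3 MO-Tbx5a arrays, and the brightest rps28 probe and rps8b are above both MO-Ct arrays on all arrays of the other groups.

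Large subunit genes called on their brightest probe were rpl6, rpl27a and rpl14, which rose, and rpl28 and rpl12, which fell. rpl6 read 15.26 and 15.07 in MO-Ct, 15.67, 15.49 and 15.70 in MO-Tbx5a and 15.24, 15.26 and 15.24 in MO-Tbx5a+miR-19a. The MO-Tbx5a arrays were above the rest on this probe (0.46, SE 0.12, limma adjusted p = 0.00971), while the other rpl6 probe fell by 0.65 (SE 0.17, limma adjusted p = 0.0103). rpl27a rose from 17.59 ± 0.08 (SD, n = 2) to 18.00 ± 0.07 (SD, n = 3), 1.34-fold, and rpl14 rose by 0.40 (SE 0.13, limma adjusted p = 0.0213). Their other probes changed by -0.14 and -0.32 and were not called, and both calls were lost under quantile normalisation and without MO-Ct replicate 1, that of rpl14 also without MO-Tbx5a replicate 3. The rise of rpl6 was lost without MO-Ct replicate 2. rpl28 averaged 16.24 ± 0.16 (SD, n = 2) in MO-Ct and 15.64 ± 0.17 (SD, n = 3) in MO-Tbx5a, a change of -0.60 (SE 0.14, limma adjusted p = 0.00500). rpl12, at the base of the stalk that recruits elongation factors, fell by 0.56 (SE 0.12, limma adjusted p = 0.00313). rpl28 and rpl12 have 1 probe each, and the call of rpl28 was lost under quantile normalisation and without MO-Ct replicate 1.

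Small subunit genes called on their brightest probe were rps27.2, rps28, rps8b and rpsa, which rose, and rps9, rps10 and rps23, which fell. rps9, near the path by which mRNA enters, read 17.24 and 17.05 in MO-Ct, 16.53, 16.30 and 16.19 in MO-Tbx5a and 17.09, 16.63 and 16.94 in MO-Tbx5a+miR-19a. The MO-Tbx5a arrays lay below all others (-0.81, SE 0.16, limma adjusted p = 0.00144). rps10, mutated in some human cases of Diamond-Blackfan anaemia, fell by 0.73 (SE 0.18, limma adjusted p = 0.00596), a call that was lost without MO-Ct replicate 1. rps23, which lines the decoding centre, fell on its brightest probe by 0.54 (SE 0.15, limma adjusted p = 0.0100), lost without MO-Ct replicate 2, and on its other probe by 1.00 (SE 0.20, limma adjusted p = 0.00184). rps9 and rps10 have 1 probe each.

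rps27.2 was the only gene with 2 or more probes whose probes were all called higher with depletion. Its brightest probe read 16.00 and 16.08 in MO-Ct, 17.04, 16.90 and 16.75 in MO-Tbx5a and 15.87, 15.84 and 15.96 in MO-Tbx5a+miR-19a. All 3 MO-Tbx5a arrays stood above the other 5, by 0.86 against MO-Ct (1.81-fold, SE 0.12, limma adjusted p = 0.000203). Its other probe rose by 0.72 (SE 0.12, limma adjusted p = 0.000484). The call of the gene held under every alternative run with the 1.3-fold minimum, in which the change ranged from 0.72 to 1.02. The gene was not called with a fold change above 2. Its paralogue rps27.1, which encodes a near-identical zinc-finger protein of the small subunit, had a brightest probe that changed by -0.06 (limma adjusted p = 0.781) and another that fell by 0.61 (SE 0.15, limma adjusted p = 0.00702). Probes of such paralogues can share transcripts, so the split between rps27.1 and rps27.2 is uncertain.

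Probes of rps28, rpsa, rpl31 and rpl6 were called in both directions, which makes 4 of the 55 genes with 2 or more probes, beside 8.28% of the other 7450 such genes. The brightest rps28 probe read 15.25 and 15.65 in MO-Ct and 16.06, 16.10 and 16.42 in MO-Tbx5a (0.74, SE 0.15, limma adjusted p = 0.00183), while the other read 16.04 and 15.81 in MO-Ct and 15.65, 15.56 and 15.21 in MO-Tbx5a (-0.45, SE 0.15, limma adjusted p = 0.0257). The groups did not overlap on either probe and, in MO-Ct, the probe with the higher mean over the 8 arrays was the dimmer. rpsa, the small subunit protein also described as a laminin receptor, rose on its brightest probe by 0.39 (SE 0.12, limma adjusted p = 0.0178) and fell on others by 0.56 and 0.73. The rise of rpsa was lost under quantile normalisation (0.15) and without either MO-Ct array, MO-Tbx5a replicate 1 or MO-Tbx5a replicate 3. rpl31 was not called on its brightest probe (0.14), while a probe averaging 9.89 in MO-Ct rose by 0.69 (SE 0.14, limma adjusted p = 0.00180) and one averaging 8.91 fell by 0.44 (SE 0.12, limma adjusted p = 0.0118).

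Of the paralogues rps8a and rps8b only rps8b was called, and no test compared the pair. rps8b, with 1 probe low on the scale, read 8.01 and 7.79 in MO-Ct, 8.54, 8.62 and 8.73 in MO-Tbx5a and 8.59, 8.51 and 8.73 in MO-Tbx5a+miR-19a. Both morphant groups lay above the controls. The rise was 0.73 with depletion (SE 0.13, limma adjusted p = 0.000725). With miR-19a added it was 0.71 relative to MO-Ct (SE 0.13, limma adjusted p = 0.00495), a call lost without MO-Ct replicate 2. rps8a changed by 0.34 (limma adjusted p = 0.0879) and 0.10 on its probes and was not called. The large subunit paralogues rpl5a and rpl5b, whose protein acts with that of rpl11 on the p53 regulator Mdm2, were not called on their brightest probes (-0.08 and 0.17). A dimmer rpl5a probe fell by 0.50 (SE 0.17, limma adjusted p = 0.0316), and the other rpl5b probes changed by -0.08 to -0.21. For these pairs, too, shared transcripts make single values uncertain.

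Other members with known disease or developmental roles were examined whatever their values. rps19, the gene most often mutated in Diamond-Blackfan anaemia, read 17.63 and 17.61 in MO-Ct, 18.03, 17.93 and 17.94 in MO-Tbx5a and 17.64, 17.62 and 17.56 in MO-Tbx5a+miR-19a. The MO-Tbx5a arrays stood above the rest, by 1.27-fold (limma adjusted p = 0.0250), short of the 1.3-fold minimum, and cyclic loess called it at 0.48, while the dimmest rps19 probe fell by 0.40 (SE 0.15, limma adjusted p = 0.0451). rps14, tied to a human anaemia of acquired chromosome loss, changed by 0.23 on each of its brighter probes, not called, and fell by 0.60 on the dimmest. rpl11 changed by -0.04 on its brightest probe and fell by 0.46 (SE 0.12, limma adjusted p = 0.00751) on the other. rpl38, needed in mice for translation of Hox mRNAs, changed by 0.25 and -0.16, rpl22 by -0.27 and rps27a, which is made as a fusion with ubiquitin, by -0.13, and none of these was called.

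Co-injection of miR-19a was measured against MO-Tbx5a. By the brightest probe 4 of 75 genes were higher and 4 lower, beside 21.0% and 20.3% of all named genes. The median change was -0.11 for the large and -0.12 for the small subunit, against -0.02 over all probes, and under quantile normalisation both shrank to within 0.01 of 0. Of the other 88 probes 23 were higher (26.1%) and 2 lower, with a median of 0.15 (0.13 under quantile normalisation and 0.07 under cyclic loess). The corresponding shares were 27.7% and 20.2% for such probes of all other genes, and 29.6% and 17.2% for the other bright probes. Over all 163 probes 27 were higher and 6 lower, against 20.2% and 21.9% of the whole array. The small subunit had 15 of 70 probes higher and the large subunit 12 of 93.

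The change of the dimmest probe was below that of the brightest in 4 of the 55 genes (7.3%), against 31.3% of other genes with a bright probe. The median difference was 0.38, beside 0.37 in those other genes and 0.15 in all other genes with at least 2 probes. For the ribosomal protein genes it was 0.29 without MO-Tbx5a replicate 3 and 0.18 under quantile normalisation. This comparison and the preceding one share the MO-Tbx5a arrays, so opposite values in both are partly built in. The dimmer rps6 probe described above rose by 1.13 (2.19-fold, SE 0.17, limma adjusted p = 0.000200), and the dimmest rps23 probe by 0.92 (1.89-fold, SE 0.18, limma adjusted p = 0.00106). rps10 rose by 0.60 (SE 0.16, limma adjusted p = 0.00759). rps9 rose by 0.55, with limma adjusted p = 0.00595, rps23 on its brightest probe by 0.43 and rpl28 by 0.41. The calls of rps23 and rpl28 were lost under quantile normalisation and cyclic loess and without MO-Tbx5a replicate 3 or MO-Tbx5a+miR-19a replicate 1, and that of rpl28 without MO-Tbx5a+miR-19a replicate 3 as well.

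The 4 genes that were lower with miR-19a on their brightest probe were rps27.2, rps26, rpl27a and rps18. rps27.2 fell by 1.01 (0.498-fold, SE 0.11, limma adjusted p = 1.72e-05) and by 0.69 on its other probe, and all MO-Tbx5a+miR-19a arrays lay below all MO-Tbx5a arrays on both. rps26, mutated in some human cases of Diamond-Blackfan anaemia, read 17.68, 17.58 and 17.31 in MO-Tbx5a and 17.10, 17.04 and 17.11 in MO-Tbx5a+miR-19a, which is lower by a log2 difference of -0.44 (SE 0.12), called at limma adjusted p = 0.00722. The MO-Ct arrays read 17.40 and 17.42, so depletion alone did not change it beyond the spread (0.11, limma adjusted p = 0.518). rpl27a fell by 0.42 and rps18 by 0.39, and both calls were lost under quantile normalisation and without MO-Tbx5a+miR-19a replicate 3, that of rps18 also under 75th-percentile scaling. Without MO-Tbx5a replicate 1 the calls of rps26 and rps18 were lost, which left 2 genes lower. The count of genes lower was 13 under cyclic loess and 7 without MO-Tbx5a replicate 2 or without MO-Tbx5a replicate 3. Of all 39162 probes 8087, 8429 and 8697 were lower in these fits, in that order.

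**Figure D4:**
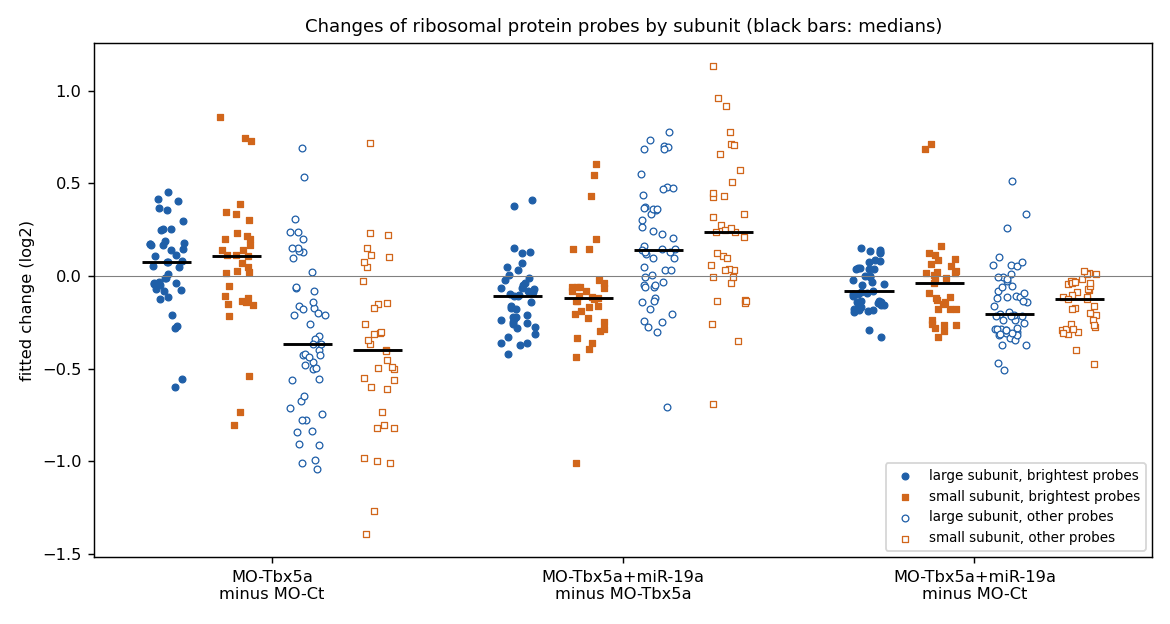
Fitted changes (vertical axis, log2) of every ribosomal protein probe in the 3 comparisons (horizontal axis), by subunit, with filled symbols for the brightest probe of each gene, open symbols for the other probes and black bars for medians. With depletion the medians of the other probes were -0.37 for the large and -0.40 for the small subunit, with miR-19a they were 0.14 and 0.24, and with both agents against MO-Ct they were -0.21 and -0.13.

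Few ribosomal protein genes differed when embryos given both agents were set against MO-Ct. By the brightest probe 2 of 75 genes were higher and 0 lower, beside 5.52% and 6.62% of all named genes, with 4 genes at an unadjusted p under 0.05. An unadjusted limma p under 0.05 was found for 14 of the 163 probes, beside 10613 of the 39162 probes of the array. Over all 163 probes limma called the same 2 higher and 0 lower, beside 5.24% and 5.95% of the array. Both are small subunit genes. The brightest rps28 probe had a mean of 15.45 ± 0.28 in the controls (SD, n = 2) and 16.14 ± 0.03 with morpholino and miR-19a (SD, n = 3), 1.61-fold (SE 0.15 on the log2 scale, limma adjusted p = 0.0134), a call lost without MO-Ct replicate 1, and its other probe changed by -0.20. The other gene was rps8b, given above. Below the threshold, the medians were -0.08 for the large and -0.04 for the small subunit. Of the 88 other probes 75 had values under 0, with a median of -0.16. Over the whole array 20996 of 39162 probes had values under 0, with a median of -0.025. These p-values do not show that the groups were alike, and 2 control arrays limit what could be called.

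Genes that work with the ribosome but lie outside the naming rule were listed for comparison. Of 5 measured ribosomal proteins outside the rule, 1 rose and 0 fell with depletion on the brightest probe (median 0.04). With miR-19a 0 rose and 1 fell (median -0.01), and 0 were called against MO-Ct. Over their 12 probes 1 rose and 4 fell with depletion, and 4 rose and 1 fell with miR-19a. Over the whole array 18.7% of probes rose and 19.6% fell with depletion, and 20.2% and 21.9% with miR-19a. rplp2 of the stalk rose with depletion by 0.58 (SE 0.12, limma adjusted p = 0.00260) and fell by 0.46 with miR-19a. rack1, a scaffold on the small subunit, was not called on its brightest probe (-0.28), and its other 3 probes fell by 0.70, 0.91 and 1.08 and rose with miR-19a by 0.69, 0.89 and 0.79. The 65 mitochondrial ribosomal protein genes differed in their brightest probes, of which 31 fell and 0 rose with depletion (median -0.35). Of all named genes 20.6% were lower and 16.5% higher. With miR-19a 30 rose and 0 fell (median 0.37), beside 21.0% and 20.3% of all named genes. Against MO-Ct 2 were higher and 2 lower (median -0.01), beside 5.52% and 6.62%. The depletion and miR-19a comparisons share the MO-Tbx5a arrays, so opposite values in both are partly built in. mrpl13 gave the lowest change of this list with depletion, -1.78, and mrps9 followed with -1.43.

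Of 27 measured nucleolar and ribosome biogenesis genes 3 rose and 4 fell with depletion (median -0.08), and 6 rose and 2 fell with miR-19a (median 0.08). Over their 75 probes 13 rose and 20 fell with depletion (median -0.08), and 26 rose and 12 fell with miR-19a (median 0.17). ncl, encoding nucleolin, read 13.48 and 13.86 in MO-Ct, 12.37, 12.69 and 12.38 in MO-Tbx5a and 14.38, 13.56 and 14.05 in MO-Tbx5a+miR-19a, with the MO-Tbx5a arrays below all others (-1.19, limma adjusted p = 0.000757). The RNA polymerase I list, whose enzyme makes ribosomal RNA, had 8 measured genes. On the brightest probe 1 rose and 2 fell with depletion (median -0.18), and 2 rose and 1 fell with miR-19a (median 0.205). Over all 20 probes of these genes the medians had the opposite sign. There 5 rose and 4 fell with depletion (0.11), and 5 rose and 7 fell with miR-19a (-0.20). Over the whole array 18.7% of probes were higher and 19.6% lower with depletion, and 20.2% and 21.9% with miR-19a. Of 9 p53 targets, 2 rose and 3 fell with depletion on the brightest probe, and 2 rose and 4 fell with miR-19a. Against MO-Ct the 3 lists had, by the brightest probe, 2 higher and 1 lower, 0 higher and 1 lower, and 1 higher and 0 lower. The shares of all named genes against MO-Ct were 5.52% higher and 6.62% lower. Of all named genes 16.5% were higher and 20.6% lower with depletion, and 21.0% and 20.3% with miR-19a.

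Some markers of cell types were called between the same groups. With depletion the shares over all named genes were 20.6% lower and 16.5% higher. With depletion 3 of 11 marker genes fell on their brightest probe, hbae1.1 of blood by 0.95, apoa1b of the yolk syncytial layer by 0.87 and acta1b of skeletal muscle by 0.75, and 1, col2a1a of the notochord, rose by 0.66. Over all 36 marker probes 18 fell and 7 rose with depletion, with a median of -0.43, and the other apoa1b probe rose by 0.73. Over the whole array 19.6% of probes were lower and 18.7% higher. With miR-19a 15 of the 36 rose and 11 fell (median 0.21), beside 20.2% higher and 21.9% lower over the whole array. By the brightest probe 3 marker genes rose and 4 fell with miR-19a, beside 21.0% and 20.3% of all named genes. Against MO-Ct 0 rose and 2 fell, beside 5.52% and 6.62%. The mean log2 intensity of the 11 marker probes ran from 13.76 to 13.84 in MO-Ct, from 13.57 to 13.75 in MO-Tbx5a and from 13.59 to 13.66 in MO-Tbx5a+miR-19a. The part of cell composition in the ribosomal protein values was not tested.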

How the data were processed

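RNA of 8 embryo pools was hybridised on 1-colour Agilent zebrafish arrays. The authors deposited log2 values for each probe and array, which per the study's methods were background-corrected with normexp and normalised between arrays by cyclic loess; these were used as deposited. The deposited scanner intensities of the 3 MO-Tbx5a+miR-19a arrays, of which the signal columns were not used, gave only accessions and quality flags. The submitters' processing notes name Agilent Feature Extraction 10.7 for MO-Ct and MO-Tbx5a and 9.1 for MO-Tbx5a+miR-19a. Accessions were named through a RefSeq gene table, which gave a symbol to 24716 probes. Any further centring of the deposited values is not given in the sources used here. The test across all 39162 probes was limma 3.58.1 in R 4.3.3 on 3 group means, with empirical Bayes variances and the study's thresholds. It was checked on simulated data. The number of arrays limits the precision.

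Members described in the text, apart from rpl8, rpl13 and rpl26, were chosen by rule. Per comparison and subunit they were up to 5 rises and 5 falls called on the brightest probe with arrays that did not overlap. Up to 6 genes with probes called in both directions and paralogue pairs were added. So were rps19, rpl5a, rpl5b, rpl11, rps6, rps14, rpl38, rpl22, rpsa and rps27a, whatever their values. Genes of the comparison lists were not chosen by this rule, so a single value need not stand for its list. The members and lists were chosen with earlier results of these data known, so no list was tested. Alternatives were quantile, cyclic loess and 75th-percentile scaling, the mean of a gene's probes, a filter on dim probes, trend and robust variances, fits of 2 groups, other fold minimums, leaving out each array and the replicate number as a block. Same-numbered arrays deviated from their group means with correlations of -0.22 to 0.18, so the numbers were not treated as pairs. Genomic positions and sequences are not given, since no genome build or sequence was used here, and some members and genes of the lists are not reported here by name.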

Additional observations from a re-analysis of the deposited data

How the results depend on the processing

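For single genes 1249 comparisons with an alternative kept their side of the threshold, 40 lost the call, 20 gained it and 17 reversed. Of the 1249, the 325 of called changes kept their sign, while 70 of the 924 of changes that were not called turned theirs. The 2 control arrays limit the precision of every comparison with MO-Ct. All 17 reversals came with another choice of probe. With the mean of all probes of a gene, the change with depletion was -0.10 for rpl6 and -0.27 for rpsa, and that with miR-19a was 0.58 for rps6. With the dimmest probe, chosen after seeing the data, the change with depletion was -0.32 for rpl14, -0.14 for rpl27a, -0.44 for rpl31, -0.65 for rpl6, -0.60 for rps14, -0.40 for rps19, -0.45 for rps28 and -0.73 for rpsa. With miR-19a it was 0.43 for rps14, 0.11 for rps18, 0.57 for rps27.1, 0.96 for rps6 and 0.45 for rpsa, and against MO-Ct it was -0.20 for rps28.

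Counts and medians below are over genes by the brightest probe unless stated. With the mean of all probes, 2 genes were higher and 14 lower with depletion (medians -0.101 large, -0.047 small). That fit called 4757 higher and 4618 lower of 27238 named genes and unnamed probes. With miR-19a 6 genes were higher and 2 lower (0.042 and 0.021), beside 4780 and 5565 of the 27238. Against MO-Ct 1 was higher and 0 lower, beside 1464 and 1694. With the dimmest probe, 3 were higher and 33 lower with depletion (-0.33 and -0.34), 18 higher and 2 lower with miR-19a (0.15 and 0.20) and 1 higher against MO-Ct (large subunit -0.19). Among only the genes of 2 or more probes, also chosen after seeing the data, 6 were higher and 1 lower with depletion. With miR-19a 1 was higher and 3 lower, and against MO-Ct 1 was higher and 0 lower. Under cyclic loess 16 genes were higher and 5 lower with depletion (0.21 and 0.23), beside 7452 and 7578 of all 39162 probes. With miR-19a 2 were higher and 13 lower (-0.21 and -0.23), where 21 other probes were higher and 5 lower. Of all 39162 probes 8415 were higher and 8087 lower there. Under quantile normalisation the depletion medians were -0.044 and -0.043, and 2 genes were higher and 5 lower with miR-19a (0.004 and -0.01). There the dimmest minus brightest difference was -0.31 with depletion and 0.18 with miR-19a. A single other probe was called higher against MO-Ct under quantile, cyclic loess, 75th-percentile scaling, the dim-probe filter, trend and robust variances and 2-group fits, that is 1 against 0. With a fold change above 2, depletion left 0 genes higher, 0 lower, and 0 other probes higher and 5 lower; miR-19a left 0 genes higher, 1 lower, and 1 other probe higher and 0 lower, and 0 genes were higher against MO-Ct. With no fold minimum, 13 genes and 5 other probes were lower with miR-19a, while 27 other probes were higher.

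Leaving out each array gave 4 to 9 genes higher and 3 to 5 lower with depletion, 2 to 5 higher and 2 to 7 lower with miR-19a, and 1 to 2 higher against MO-Ct. Of the other probes 25 to 49 were lower with depletion, and 0 to 1 were higher and 0 to 1 lower against MO-Ct. The small subunit median with depletion ran from 0.035 to 0.130, and the dimmest minus brightest difference with miR-19a from 0.29 to 0.44. Where 1 MO-Ct array remained it was assumed to vary like the other groups. With the replicate number as a block, although the numbers do not pair the samples, 9 genes were higher and 5 lower with depletion and 33 other probes lower, and 4 and 4 genes were called with miR-19a. The cause of these differences was not tested. Naming probes by the arrays' own gene names was not run, because the scans hold accessions.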

Other observations

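Genes that the naming rule left out gave the following values. Of 5 measured paralogues and assembly factors, 0 rose and 2 fell with depletion on the brightest probe (median -0.33), 2 rose and 1 fell with miR-19a (median 0.30), and 0 rose and 1 fell against MO-Ct. rpl7l1 fell by 0.77 (limma adjusted p = 0.00151) and rose by 0.57 with miR-19a. rsl24d1, which takes part in maturation of the large subunit, fell by 0.74 and rose by 0.55. rps27l, a p53-linked paralogue of rps27 in mammals, changed by -0.11 with depletion and fell by 0.38 with miR-19a and by 0.50 against MO-Ct. rpl22l1, at 0.06 with depletion, was not called, nor was rps26l at 0.00 and 0.22 on its probes. Of the 4 l-named genes left out, 0 rose and 1 fell with depletion, and 1 rose and 1 fell with miR-19a. Of all named genes 16.5% were higher and 20.6% lower with depletion, and 21.0% and 20.3% with miR-19a. Against MO-Ct these shares were 5.52% and 6.62%. Lists this small cannot be told from those shares.

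Of 6 rps6k kinase genes, 1 rose and 0 fell with depletion (median 0.22), beside 16.5% and 20.6% of all named genes. With miR-19a 1 rose and 1 fell (median -0.20), beside 21.0% and 20.3%, and 0 were called against MO-Ct.

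Among the probes other than the brightest, rpl26 had 1 of the 3 that rose with depletion, by 0.53 (limma adjusted p = 0.00340), which was singled out after its values were seen. Its other probes changed by 0.26 and 0.14 and were not called.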
